A study of Rattus norvegicus and Ovis aries with 113 samples.

Results

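The hippocampus and the entorhinal cortex of the same 5 sheep were compared by RNA sequencing. The comparison took every sheep library labelled hippocampus (5) and every sheep library labelled entorhinal cortex (5), paired by the number of the animal, which made 10 of the 113 libraries of the series. The animals were post-pubertal male sheep (Ovis aries) numbered 687, 688, 690, 694 and 699, with no treatment, genotype or breed named in the labels, and the pieces of brain came from the same hemisphere. The whole series sets brain regions beside sperm or ovary in sheep and rats, to look for genes that link neurological and reproductive functions. Neither region was picked by any measured value.

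The hippocampus is folded cortex with few layers. Its dentate gyrus holds granule cells, which send mossy fibres to the pyramidal cells of field CA3, and these project to field CA1. The entorhinal cortex lies beside it in the temporal lobe and is layered, with stellate and pyramidal cells in its superficial layers that send the perforant path to the dentate gyrus and the CA fields and deep layers that receive the hippocampal output. Together they serve spatial memory and navigation. In rodents, PROX1 marks dentate granule cells, FIBCD1 and RGS14 mark pyramidal fields CA1 and CA2, and CUX2 and TBR1 mark layered cortex, so a dissection of each region is usually told by these genes.

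Levels are counts per 1000000 (CPM), scaled between libraries by the trimmed mean of M values, and each run of 5 values is given in the order of sheep 687, 688, 690, 694 and 699. Library totals ranged from 46.7 to 69 M (M, 1000000 counts), and 15495 to 16208 genes reached 1 CPM. The first principal component of the log-scale values held 26.6% of the variance and the second 23.1%, and the regions overlapped on both. The entorhinal library of sheep 688 lay farthest out on the second component, at -97.3, where the other 9 libraries lay between -19.0 and 37.8. Correlations of log-scale values were as high between the regions of 1 animal (median 0.963 of 5 pairs) as within the hippocampus (median 0.960 of 10 pairs) and within the entorhinal cortex (median 0.958 of 10 pairs).

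The labelled regions were first set against their defining genes. HPCA encodes hippocalcin, a calcium sensor abundant in hippocampal pyramidal cells. Its level was 821, 881, 479, 522 and 59.5 CPM in hippocampus and 63.2, 101, 64.8, 72.7 and 636 CPM in entorhinal cortex. In 4 sheep the hippocampus was 7.17 to 13.0-fold higher, with no overlap between the regions of these 4 animals, and in sheep 699 the library labelled entorhinal cortex was 10.7-fold higher. FIBCD1, the CA1 marker, stood at 0.684 CPM in the library labelled hippocampus of sheep 699 and at 45.6 CPM in its library labelled entorhinal cortex. RGS14, a signalling regulator of CA2 cells, read 15.1 CPM in that hippocampus and 94.8 CPM in that entorhinal cortex. HPCA, FIBCD1 and RGS14 of sheep 699 thus went against its labels. Lists of regional genes were mixed in this animal, by the hippocampus minus entorhinal difference in the mean of log2(CPM + 1). The dentate granule cell (0.21) and deep-layer (-0.19) lists followed its labels. The pyramidal field (-0.74), entorhinal layer (0.4), upper-layer (0.14) and medial pallium (-0.17) lists went against them. The samples were kept under their labels and were not exchanged.

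Sheep 694 departed from the other animals in its library labelled entorhinal cortex. The upper-layer transcription factor CUX2 was at 45.5, 72.1 and 64.4 CPM in the entorhinal cortex of sheep 687, 688 and 690, but at 8.28 CPM in that of sheep 694 and 6.11 CPM in that of sheep 699. TBR1, a transcription factor of deep layers, was at 3.81 CPM in the entorhinal library of sheep 694, the lowest of the 5. HPCA in this library was 72.7 CPM, within the range of the entorhinal cortex of sheep 687, 688 and 690. CUX2 and TBR1 were therefore low in it without a high level of hippocalcin. Whole lists of layer genes, as the mean of log2(CPM + 1), were less apart. Its deep-layer score of 3.93 lay among the 4.0, 4.66 and 3.69 of sheep 687, 688 and 690. Its upper-layer score of 4.51 lay just below their 4.71, 5.05 and 4.6. The results below are given over all 5 sheep first. For some of them, fits without sheep 699 or without both sheep 694 and 699 are also given. These animals were chosen on marker levels after the values had been seen, so results without them are not independent support for any region difference.

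**Figure D1:**
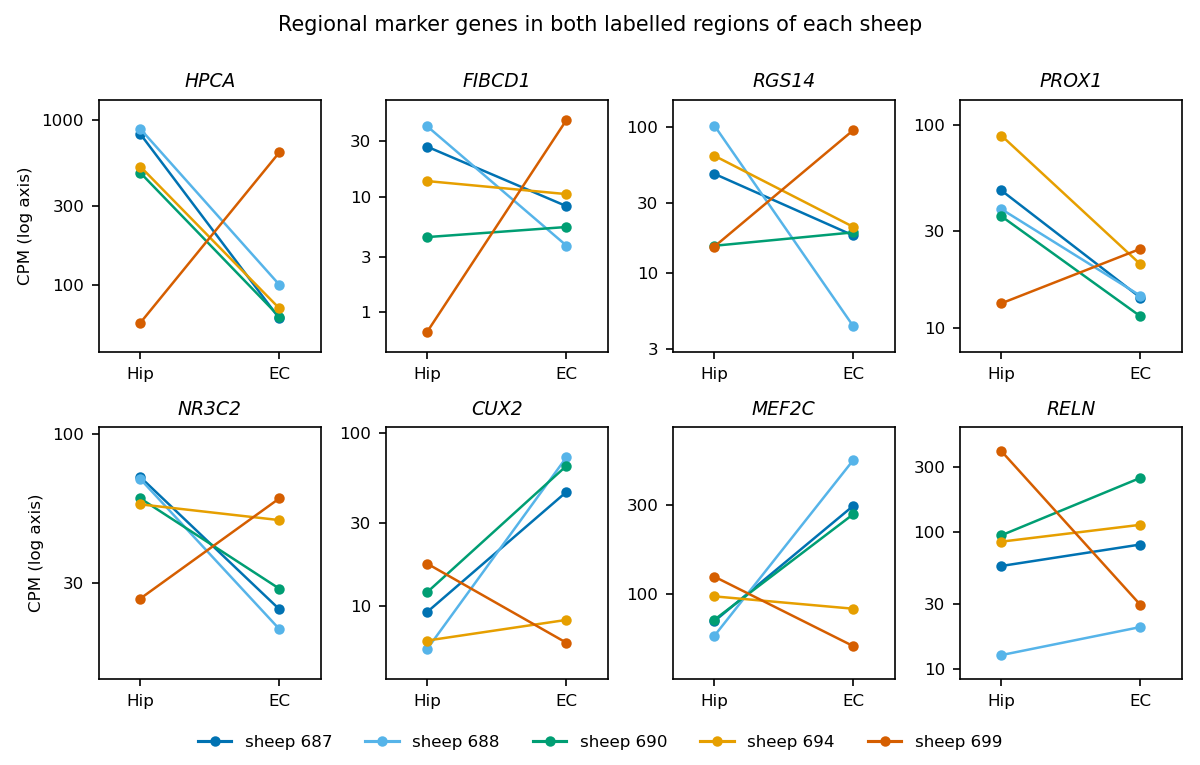
CPM on log axes of 8 regional marker genes in the libraries labelled hippocampus (Hip) and entorhinal cortex (EC), with a line for each of the 5 sheep. The line of sheep 699 runs against that of sheep 687 and 688 in all 8 panels, and HPCA lies at 479 to 881 CPM in Hip and 63.2 to 101 CPM in EC of the other 4 sheep.

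Across all genes the 5 sheep did not share a pattern. The difference between hippocampus and entorhinal cortex, taken within each sheep as log2(CPM + 1) over 19613 genes, had a Pearson correlation of 0.59 between sheep 687 and 690, 0.24 between 688 and 690 and 0.14 between 687 and 688. Sheep 699 correlated negatively with these 3 animals, at -0.42 with 687, -0.38 with 688 and -0.54 with 690. Sheep 694 correlated at -0.02 with 687, 0.12 with 688, -0.40 with 690 and 0.04 with 699. These correlations run across genes, which are not independent, and each difference carries the depth and dissection of its own 2 libraries. Within single animals, in the order 687, 688, 690, 694 and 699, of these 19613 genes 335, 769, 541, 434 and 376 were at least 2-fold higher in the hippocampus on this scale, and 406, 942, 595, 386 and 621 in the entorhinal cortex.

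**Figure D2:**
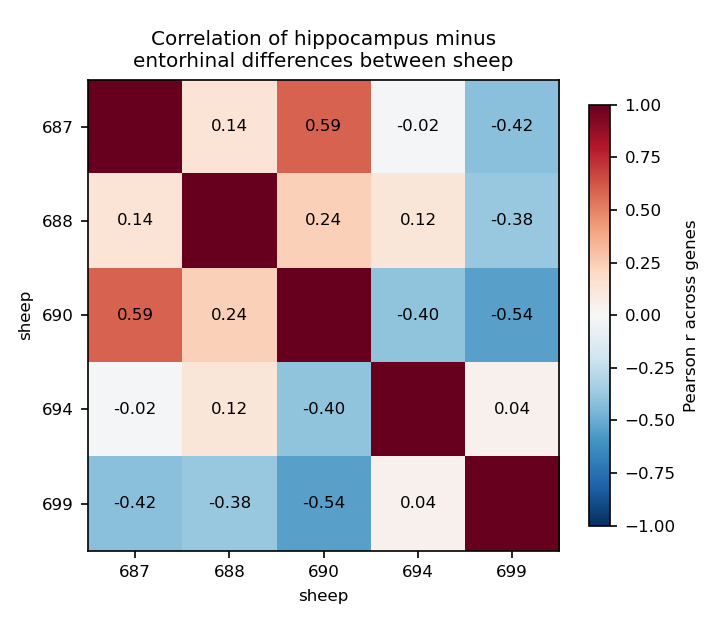
Pearson correlation across 19613 genes of the hippocampus minus entorhinal difference in log2(CPM + 1), for each pair of the 5 sheep, on a colour scale from -1 to 1. Sheep 687 and 690 share the highest value, 0.59, and sheep 699 has values from -0.54 to -0.38 with 687, 688 and 690.

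No gene passed the test of hippocampus against entorhinal cortex over the 5 sheep. In the edgeR quasi-likelihood test with the animal as a block, 0 of 19613 genes (0%) had a Benjamini-Hochberg adjusted p below 0.05, and every adjusted p was 1. At an unadjusted p below 0.05 there were 353 genes (1.8%), of which 160 were higher in the hippocampus and 193 in the entorhinal cortex. With limma voom 0 genes passed and 400 had an unadjusted p below 0.05. DESeq2 passed 8 of 27420 genes (0.0292%), of which 1 was higher in the hippocampus. Without sheep 699 edgeR again passed 0 genes, but 1383 of 19598 (7.06%) had an unadjusted p below 0.05, and the smallest adjusted p was 0.0684. The values that follow are therefore descriptions of the 5 pairs, with log2 fold changes written as hippocampus over entorhinal cortex and their standard errors (SE). Counts of list members at an unadjusted p below 0.05 over the 5 sheep stand beside the 1.8% of all genes.

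The dentate granule cell list lay higher in the hippocampus of 4 sheep. Its difference in the mean of log2(CPM + 1) averaged 0.30 ± 0.30 (SD, n = 5). In the order of the sheep it was -0.02, 0.29, 0.22, 0.79 and 0.21, so sheep 687 was the exception and sheep 694 the largest. PROX1, the transcription factor that sets granule cell identity, was at 47.6, 38.5, 35.5, 88.8 and 13.2 CPM in hippocampus and 14.1, 14.4, 11.4, 20.6 and 24.5 CPM in entorhinal cortex. It was 2.67 to 4.30-fold higher in the hippocampus of 4 sheep and 1.86-fold lower in that of sheep 699. The log2 fold change was 1.26 ± 0.44 (SE), with an unadjusted edgeR p of 0.0262 and an adjusted p of 1. C1QL2, a synapse organizer secreted by mossy fibres, was higher in the hippocampus of 2 sheep, at 7.81, 7.23, 11.3, 6.23 and 12.6 CPM against 9.80, 7.97, 11.2, 22.1 and 6.14 CPM. PLK5, a kinase-like protein of granule cells, was higher in the hippocampus of all 5 sheep, at 4.52, 7.14, 1.31, 13.9 and 1.61 CPM against 2.96, 0.115, 0.450, 0.571 and 1.31 CPM. Over the 12 tested of 13 dentate genes, 0 passed and 2 had an unadjusted p below 0.05, both higher in the hippocampus, beside 1.8% of all genes. The median log2 fold change was 0.42, where that of all 19613 genes was 0.008. The hippocampus of sheep 694 held the highest summed level of this list, 441 CPM, where the other 9 libraries ranged from 218 to 324 CPM.

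Genes of the pyramidal fields varied widely between animals. FIBCD1 read 26.9, 40.3, 4.47, 13.6 and 0.684 CPM in hippocampus and 8.27, 3.78, 5.46, 10.5 and 45.6 CPM in entorhinal cortex. Its hippocampal level differed widely between sheep 688 and 690, and the log2 fold change was 0.38 ± 1.29 (SE). RGS14 read 47.6, 102, 15.3, 63.3 and 15.1 CPM against 18.0, 4.30, 18.9, 20.6 and 94.8 CPM. Sheep 690, whose HPCA followed its label, had low FIBCD1 and RGS14 in the hippocampus. GRIK4, a kainate receptor subunit of CA3 cells, was higher in the hippocampus of 3 sheep, at 34.6, 30.3, 30.1, 20.9 and 16.4 CPM against 15.7, 16.4, 13.8, 26.3 and 29.8 CPM. WFS1, an endoplasmic reticulum protein that marks CA1 cells and some superficial entorhinal cells in rodents, was lower in the hippocampus of 4 sheep, with 35.6 ± 10.6 CPM (SD, n = 5) against 57.0 ± 28.8 CPM (SD, n = 5). Of 16 tested genes of the 18 listed, 0 passed, 1 had an unadjusted p below 0.05 (MPPED1, lower in the hippocampus), and the median log2 fold change was 0.08. IYD was not tested for low counts and NDST4 was not analysed here.

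Transcription factors of the medial pallium, the embryonic field that gives rise to the hippocampus, did not set the regions apart over the 5 sheep. Within single sheep some of them differed widely. ZBTB20, which is needed for the identity of CA1 cells, was at 463, 748, 494, 691 and 341 CPM in hippocampus and 241, 196, 323, 423 and 563 CPM in entorhinal cortex. It was higher in the hippocampus of 4 sheep and lower in that of sheep 699, with a log2 fold change of 0.70 ± 0.36 (SE). EMX2 averaged 20.9 ± 4.86 CPM (SD, n = 5) against 17.7 ± 4.31 CPM (SD, n = 5). LEF1, a nuclear effector of Wnt signalling, averaged 12.4 ± 6.92 CPM (SD, n = 5) against 12.8 ± 4.87 CPM (SD, n = 5). NR2F2, a nuclear receptor of caudal cortex and of some interneurons, ran from 11.0 to 74.3 CPM in hippocampus and from 13.3 to 105 CPM in entorhinal cortex. It was 4.73-fold higher in the entorhinal cortex of sheep 694 and 4.6-fold higher in the hippocampus of sheep 699. All of these ranges overlapped. Of 15 tested factors, 0 passed, and MEIS2, lower in the hippocampus of 4 sheep, was the 1 member with an unadjusted p below 0.05.

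CUX2, MEF2C and TBR1, genes of layered cortex, were higher in the entorhinal cortex of sheep 687, 688 and 690, while the score of the whole upper-layer list, the mean of log2(CPM + 1), was lower in the hippocampus by 0.09 in sheep 687 and 0.91 in 688 and higher by 0.19 in 690. CUX2 read 9.22, 5.64, 12.0, 6.29 and 17.5 CPM in hippocampus, against the entorhinal values of 45.5, 72.1, 64.4, 8.28 and 6.11 CPM. The entorhinal level of sheep 687, 688 and 690 was 4.93 to 12.8-fold that of their hippocampus, while in sheep 694 it was 1.32-fold higher and in sheep 699 2.86-fold lower. MEF2C, an activity-dependent transcription factor of cortical neurons, read 71.7, 59.9, 73.0, 97.3 and 124 CPM in hippocampus and 296, 519, 267, 83.6 and 52.8 CPM in entorhinal cortex. The same 3 sheep were high and the same 2 low. TBR1 read 8.82, 10.2, 2.47, 11.6 and 18.5 CPM against 25.6, 92.3, 24.9, 3.81 and 5.85 CPM. It was highest in the entorhinal cortex of sheep 688. RORB, a layer IV factor, was higher in the entorhinal cortex of 3 sheep and averaged 5.11 ± 3.56 CPM (SD, n = 5) in hippocampus and 4.82 ± 1.63 CPM (SD, n = 5) in entorhinal cortex.

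Reelin, the secreted glycoprotein made by superficial entorhinal cells and by Cajal-Retzius cells and interneurons, varied widely between libraries. RELN was at 56.5, 12.6, 94.7, 85.1 and 391 CPM in hippocampus and 81.1, 20.2, 249, 113 and 29.4 CPM in entorhinal cortex. It was 1.33 to 2.63-fold higher in the entorhinal cortex of 4 sheep, and 13.3-fold higher in the library labelled hippocampus of sheep 699. Both libraries of sheep 688 lay below all 8 others. No member of the 9 entorhinal layer II and III genes and the 11 upper-layer genes had an unadjusted p below 0.05. Among 14 deep-layer genes 2 had an unadjusted p below 0.05, FOXP2 and NR4A2, both lower in the hippocampus, and 0 passed. The deep-layer list was the 1 of 33 lists whose score, the mean of log2(CPM + 1) over its members, lay on the same side in all 5 sheep. It was lower in the hippocampus by 0.29, 0.94, 0.11, 0.13 and 0.19 in the order of the sheep, and its mean difference of -0.33 was smaller than the range over either region.

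**Figure D3:**
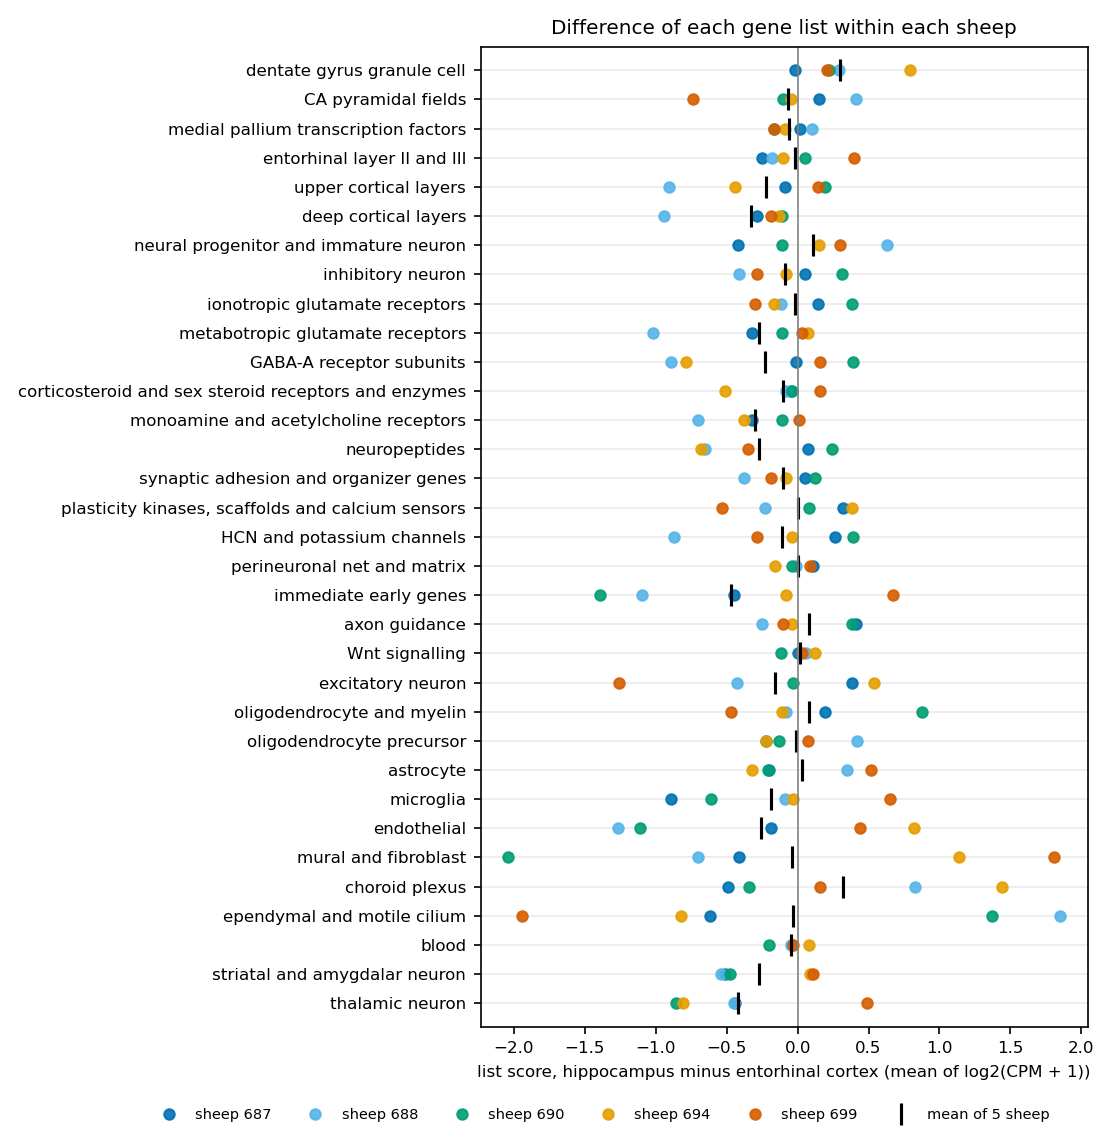
Hippocampus minus entorhinal score (mean of log2(CPM + 1)) of each of 33 gene lists, with 1 point for each sheep and a black bar at the mean. In 28 lists the point of sheep 699 lies on the other side of zero from that of sheep 687, and in 32 lists the mean difference is smaller than the range of scores within either region.

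The mineralocorticoid receptor gene followed the pattern of the regional markers, and the glucocorticoid receptor gene was near equal in the regions. NR3C2, whose product binds cortisol with high affinity and is abundant in hippocampal neurons, read 70.8, 69.7, 59.6, 56.8 and 26.5 CPM in hippocampus and 24.3, 20.7, 28.7, 50 and 59.6 CPM in entorhinal cortex. It was 2.08 to 3.37-fold higher in the hippocampus of sheep 687, 688 and 690, 1.14-fold higher in that of 694 and 2.25-fold lower in that of 699. The log2 fold change over the 5 pairs was 0.70 ± 0.44 (SE), with an unadjusted edgeR p of 0.158. NR3C1, the glucocorticoid receptor gene, differed by 1.01 to 1.13-fold in every sheep, with 60.1 ± 14.1 CPM (SD, n = 5) against 62.8 ± 12.9 CPM (SD, n = 5). Its log2 fold change was -0.07 ± 0.09 (SE), the smallest SE among the 23 fixed genes reported here. Of the 11 tested corticosteroid and sex steroid genes, 0 passed and 0 had an unadjusted p below 0.05. CYP19A1 and PRLR were not analysed here.

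No serotonin, GABA or glutamate receptor gene passed. HTR1A, the inhibitory serotonin receptor of pyramidal cells, was higher in the hippocampus of 3 sheep, at 13.4, 14.7, 6.69, 17.5 and 2.10 CPM against 8.87, 16.1, 2.84, 6.42 and 5.64 CPM. GABRA5, the subunit of extrasynaptic GABA-A receptors in CA cells, was 1.63 to 2.12-fold higher in the hippocampus of sheep 687, 688 and 690 and 1.53 and 2.28-fold lower in that of 694 and 699. Its 114 CPM in the entorhinal cortex of sheep 694 lay between the hippocampal levels of sheep 690 and 687, 108 and 119 CPM. None of the 18 ionotropic glutamate receptor genes and none of the 14 GABA-A subunit genes had an unadjusted p below 0.05. GRM8 and GRM3 were the 2 of 7 metabotropic receptor genes below it, with log2 fold changes of -0.80 ± 0.24 (SE) and -0.51 ± 0.20 (SE). The median log2 fold change of the metabotropic list was -0.35. Of 29 monoamine and acetylcholine receptor genes, 2 had an unadjusted p below 0.05, ADRB1 and CHRM4, both lower in the hippocampus, and the median of the list was -0.43. Its score was lower in the hippocampus of 4 sheep, by a mean of 0.30 on the log2(CPM + 1) scale, above the range of 0.27 over the hippocampal libraries and below that of 0.64 over the entorhinal ones. CHRM4, a muscarinic receptor that inhibits adenylyl cyclase, was lower in the hippocampus of all 5 sheep, at 1.82, 1.11, 1.54, 0.647 and 0.782 CPM against 4.61, 8.81, 2.48, 3.34 and 0.843 CPM.

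A small share of genes lay on the same side in every sheep, sheep 694 and 699 included. There were 366 such genes higher in the hippocampus (1.87%) and 253 higher in the entorhinal cortex (1.29%) among the 19613. With 5 sheep, genes can lie on 1 side in every animal by chance, and these shares were not tested against it. Agreement of all 5 sheep is therefore given here as a description only. The genes that the next paragraphs give as on 1 side in all 5 sheep, or as without overlap, and those passed by DESeq2 were picked after the values had been seen. CRHBP had the smallest p of the comparison. It encodes a binding protein that sequesters corticotropin-releasing hormone and is made by some interneurons. Its level was 14.6, 8.27, 7.13, 2.18 and 3.67 CPM in hippocampus and 38.3, 25.5, 11.8, 8.25 and 14.4 CPM in entorhinal cortex. Both regions of sheep 687 were high and both of sheep 694 low, so the ranges overlapped while each pair differed by 1.66 to 3.93-fold. The log2 fold change was -1.53 ± 0.20 (SE), with an unadjusted edgeR p of 0.000179, an adjusted p of 1, and a DESeq2 adjusted p of 7.41e-07.

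Of the other genes passed by DESeq2, 5 with gene symbols were on the same side in all 5 sheep. INHBA, a subunit of the growth factor activin A, read 5.67, 7.87, 3.93, 6.16 and 3.83 CPM in hippocampus and 7.89, 18.2, 10.6, 13.9 and 6.13 CPM in entorhinal cortex. HRH3, the histamine receptor that restrains transmitter release, read 24.9, 27.7, 10.1, 7.64 and 14.8 CPM against 48.2, 49.6, 30.4, 8.95 and 37.4 CPM. ADARB2, a catalytically inactive member of the RNA-editing enzyme family found in interneurons, read 36.4, 33.8, 37.5, 58.4 and 45.7 CPM against 23.5, 9.82, 28.3, 25.1 and 20.2 CPM. Its hippocampal values all lay above its entorhinal values, and its log2 fold change was 1.04 ± 0.21 (SE). CDH1, the epithelial cadherin, was 0.279 to 0.717 CPM in hippocampus and 0.737 to 1.98 CPM in entorhinal cortex. EPYC, a small proteoglycan, was at or below 0.190 CPM in hippocampus, with 0 counts in 3 libraries, and from 0.118 to 1.43 CPM in entorhinal cortex. The DESeq2 adjusted p was 0.0100 for INHBA, 0.0484 for HRH3, 0.0396 for ADARB2 and CDH1 and 0.00154 for EPYC, and none of these passed in edgeR or limma voom, where EPYC was under the low-count filter. RXFP1, a relaxin receptor, was lower in the hippocampus of 4 sheep, at 0.548, 0.213, 0.147, 0.262 and 0.945 CPM against 3.69, 16.7, 4.44, 6.95 and 0.227 CPM, and had a DESeq2 adjusted p of 0.0141. The placeholder symbol LOC105605305 was the remaining gene.

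Across all genes, 11 had every hippocampal value above every entorhinal value (0.0561%) and 15 had the reverse (0.0765%). Where the higher region averaged 10 CPM or more, 3 such genes were left. Besides ADARB2 they were PLAC9, at 13.7, 13.5, 12.2, 14.7 and 13.0 CPM in hippocampus against 5.62, 0.803, 11.3, 8.09 and 4.38 CPM, and RETREG1. RETREG1, a receptor for the turnover of endoplasmic reticulum, read 62.9, 51.3, 60.5, 45.4 and 58.1 CPM in hippocampus and 67.1, 103, 67.4, 73.8 and 63.5 CPM in entorhinal cortex. The gap between its regions was narrow, since 62.9 CPM in the hippocampus of sheep 687 came next to 63.5 CPM in the entorhinal cortex of sheep 699.

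**Figure D4:**
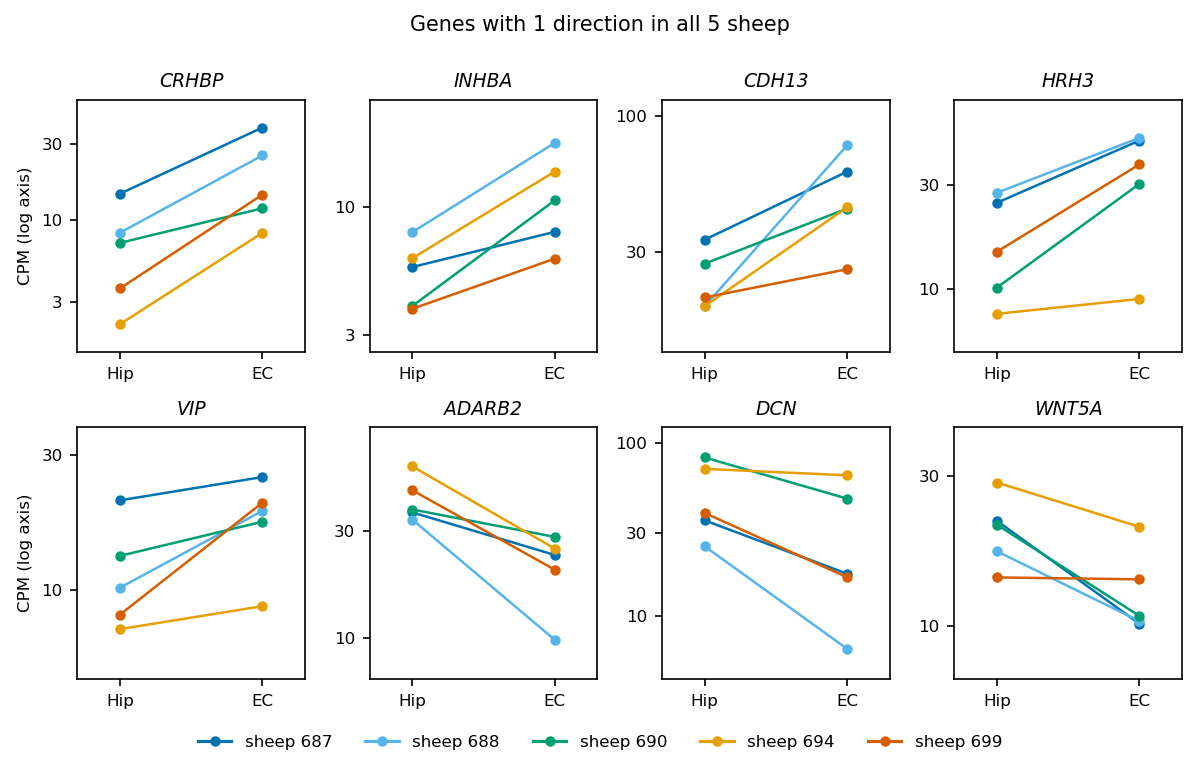
CPM on log axes of 8 genes whose difference between hippocampus (Hip) and entorhinal cortex (EC) had the same sign in all 5 sheep, picked after the values had been seen, with a line for each sheep. CRHBP runs from 2.18 to 14.6 CPM in Hip and 8.25 to 38.3 CPM in EC, and ADARB2 shows no overlap between the regions.

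Several genes of adhesion, matrix or signalling were among those on the same side in all 5 sheep, while none of the 31 tested synaptic adhesion genes and none of the 12 perineuronal net and matrix genes was. CDH13, a cadherin anchored to the membrane by lipid, read 33.4, 18.5, 27.0, 18.5 and 20.0 CPM in hippocampus and 61.1, 77.1, 44.0, 44.5 and 25.7 CPM in entorhinal cortex, a log2 fold change of -1.05 ± 0.24 (SE). WNT5A, a ligand of the branch of Wnt signalling that does not use beta-catenin, read 21.6, 17.3, 21.0, 28.6 and 14.3 CPM against 10.2, 10.4, 10.8, 20.7 and 14.1 CPM. In sheep 699 its levels were nearly equal, and the log2 fold change was 0.65 ± 0.17 (SE). DCN, the matrix proteoglycan decorin of fibroblasts, read 35.6, 25.2, 82.3, 70.7 and 39.3 CPM in hippocampus and 17.5, 6.44, 47.6, 64.9 and 16.7 CPM in entorhinal cortex. The laminin chain gene LAMB1 and the collagen chain gene COL12A1 were likewise higher in the hippocampus of all 5 sheep, with log2 fold changes of 1.03 ± 0.25 (SE) and 0.81 ± 0.20 (SE). None of the other 11 mural and fibroblast genes was on the same side in all 5 sheep. The summed level of that list, DCN included, was higher in the hippocampus of sheep 694 and 699 and lower in that of the other 3. Of the 31 tested Wnt genes, 1 higher in the hippocampus (WNT5A) and 1 lower (WNT4) had an unadjusted p below 0.05.

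Of the 16 tested interneuron genes, 3 had an unadjusted p below 0.05 as higher in the hippocampus (ADARB2, SNCG and PROX1) and 1 as lower (VIP). VIP, the vasoactive intestinal peptide of a class of interneurons, read 20.7, 10.2, 13.2, 7.29 and 8.20 CPM in hippocampus and 25.0, 19.0, 17.4, 8.78 and 20.3 CPM in entorhinal cortex, lower in the hippocampus of all 5 sheep. Its log2 fold change was -0.63 ± 0.18 (SE), with an unadjusted edgeR p of 0.0126. CCK, the peptide cholecystokinin, read 38.3, 39.6, 22.6, 29.9 and 27.4 CPM against 135, 251, 59.6, 25.9 and 34.8 CPM. It was high in the entorhinal cortex of sheep 687 and 688 and at hippocampal levels in that of sheep 694. CORT, cortistatin, a relative of somatostatin, was lower in the hippocampus of 4 sheep, with 3.55 ± 1.85 CPM (SD, n = 5) against 8.45 ± 3.24 CPM (SD, n = 5). PENK, the precursor of the enkephalins, was lower in the hippocampus of all 5 sheep, but its entorhinal level of 79.4 CPM in sheep 688 stood apart from 3.94 to 11.5 CPM in the other 4. Over the 23 tested neuropeptide genes 0 passed, 3 had an unadjusted p below 0.05 (CCK, VIP and CORT, all lower in the hippocampus), beside 1.8% of all genes, and the median log2 fold change was -0.52. GAD2, which makes GABA, averaged near equal levels but was lower in the hippocampus of sheep 688 and 699 and higher in the other 3, at 131, 55.7, 146, 111 and 105 CPM against 96.9, 115, 103, 96.0 and 118 CPM.

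Genes of synapses, excitability and activity added few differences. SHANK2, a scaffold of the postsynaptic density, was lower in the hippocampus of all 5 sheep, with 56.2 ± 7.15 CPM (SD, n = 5) against 79.7 ± 13.8 CPM (SD, n = 5). It was the 1 member of 22 plasticity genes with an unadjusted p below 0.05. Among 27 genes of HCN and potassium channels, KCNIP2 (higher in the hippocampus) and KCNG1 (lower) were below that threshold. Outside the lists, the potassium channel genes KCNK9 and KCNH3 were lower in the hippocampus of all 5 sheep, with log2 fold changes of -0.64 ± 0.13 (SE) and -0.57 ± 0.14 (SE). Of 14 immediate early genes, which neurons transcribe within minutes of activity, 3 were below the threshold, EGR2, EGR4 and NPAS4, all lower in the hippocampus, and the median log2 fold change of the list was -0.46. EGR1 read 14.2, 11.2, 10.2, 14.7 and 35.8 CPM in hippocampus and 34.4, 101, 50.2, 16.2 and 7.15 CPM in entorhinal cortex. The library labelled hippocampus of sheep 699 was the high one of its region and its library labelled entorhinal cortex the low one. DCX, a marker of immature neurons in the dentate gyrus, gave 51.9 ± 15.7 CPM (SD, n = 5) against 46.9 ± 13.2 CPM (SD, n = 5). Over the 33 lists, 0 of 451 tested members passed and 30 had an unadjusted p below 0.05, where 353 of all 19613 genes (1.8%) did. The lists were drawn up with earlier results of these data known, so these counts are no test of an excess in them.

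The cell types of the dissections differed between animals, and these values stand beside the neuronal results because fewer cells of a type and less RNA per cell cannot be told apart in bulk tissue. The excitatory neuron list summed to 4570, 5468, 2983, 4524 and 2503 CPM in hippocampus and 2842, 4641, 2633, 2218 and 4922 CPM in entorhinal cortex, with counts for all 8 genes in all 10 libraries. SLC17A7, the vesicular glutamate transporter of cortical excitatory neurons, was at 164 CPM in the library labelled hippocampus of sheep 699 and at 343 to 885 CPM in the other 9. The myelin list summed to 6100.2 to 12718 CPM in hippocampus and 3477 to 14878 CPM in entorhinal cortex, highest in both regions of sheep 688 and 699. MBP, the myelin basic protein, was 2209 to 6054 CPM in hippocampus and 1469.8 to 6776 CPM in entorhinal cortex. GFAP, the astrocyte filament, was 3517 to 5232 CPM in hippocampus and 3728 to 4832 CPM in the entorhinal cortex of 4 sheep, but 1399.9 CPM in that of sheep 688. The astrocyte list, with counts for all 12 genes everywhere, summed to 10869 to 16487 CPM in hippocampus and 6501 to 18589 CPM in entorhinal cortex. None of these 3 glial and neuronal lists had a member with an unadjusted p below 0.05.

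Vascular, choroid plexus and ependymal genes differed widely between libraries of the same region. The mural and fibroblast list summed to 221, 129, 264, 939 and 1071 CPM in hippocampus and 275, 407, 981, 406 and 337 CPM in entorhinal cortex, with counts for all 12 genes in all libraries. The hippocampus of sheep 694 and 699 and the entorhinal cortex of sheep 690 were the high libraries, and the endothelial list was highest in the same 3. TTR, transthyretin of the choroid plexus, was at 101, 184, 183, 1503 and 55.6 CPM in hippocampus and 255, 1.99, 226, 151 and 97.9 CPM in entorhinal cortex. The choroid plexus list of 11 genes in the table, TTR included, summed to 1656 CPM in the hippocampus of sheep 694. It summed to 14.8 CPM in the entorhinal cortex of sheep 688, with CLDN2 at 0 in at least 1 library. TTR made up most of the 1656 CPM. The microglia list summed to 135 to 499.8 CPM in hippocampus and 150.3 to 618 CPM in entorhinal cortex, with CD68 at 0 in at least 1 library. The motile cilium list summed to 55.4 to 129.6 CPM in hippocampus and 39.3 to 179 CPM in entorhinal cortex, with TMEM212 at 0 in at least 1 library. Lists for neighbouring tissue were also measured: the thalamic list, with GBX2 and SHOX2 at 0 in at least 1 library, summed to 62.7 to 104 CPM in hippocampus and 68.8 to 166 CPM in entorhinal cortex, and the striatal and amygdalar list to 75.2 to 119 and 77.6 to 190.3 CPM. Blood genes were near the floor, at 0.185 to 1.08 CPM summed over 5 genes, 4 of which were at 0 in at least 1 library. The part of these cell types in the neuronal values was not tested.

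**Figure D5:**
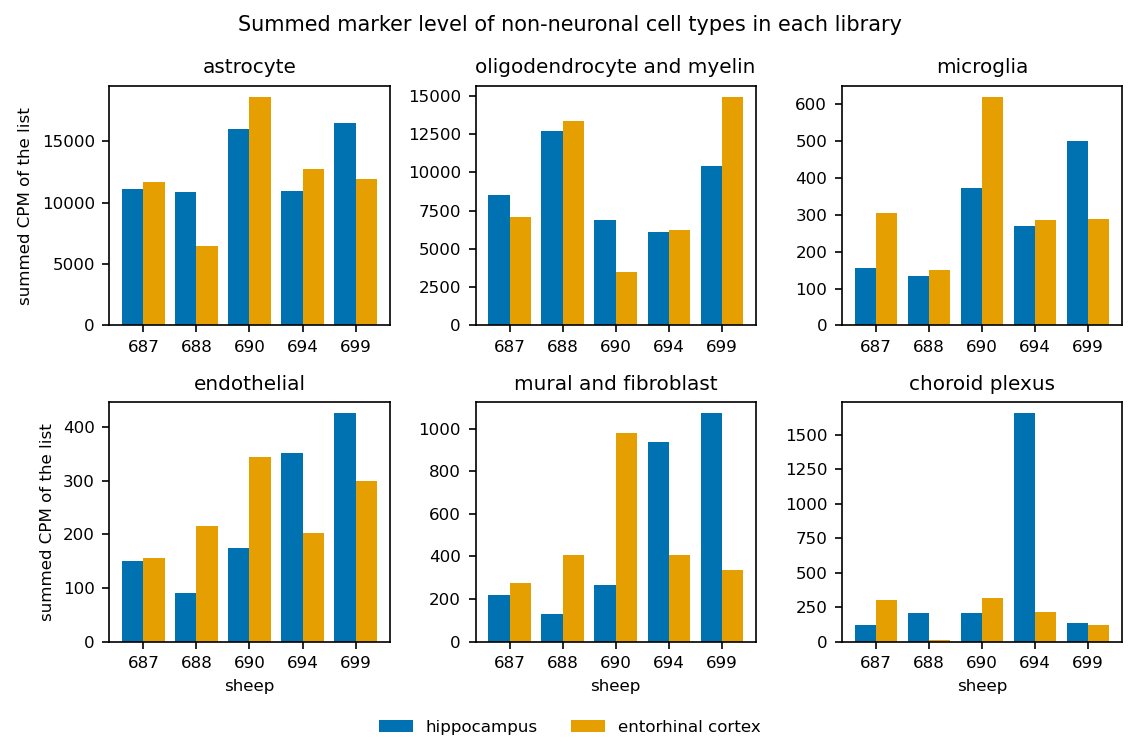
Summed CPM of the astrocyte, oligodendrocyte and myelin, microglia, endothelial, mural and fibroblast, and choroid plexus lists in each library, as bars from zero for hippocampus and entorhinal cortex of each of the 5 sheep. The choroid plexus bar reaches 1656 CPM in the hippocampus of sheep 694, and the mural and fibroblast bars are high in the hippocampus of sheep 694 and 699 and the entorhinal cortex of sheep 690.

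Sheep 687, 688 and 690 were also fitted alone. HPCA, PROX1, NR3C2 and CUX2 followed the labels in all 3, while FIBCD1 and RGS14 were slightly higher in the entorhinal cortex of sheep 690. With the animal as a block 0 of 19567 genes passed, the smallest adjusted p was 0.0548, and 2221 genes (11.4%) had an unadjusted p below 0.05, 817 higher in the hippocampus and 1404 in the entorhinal cortex. Without the block 29 genes passed (0.148%), 14 higher in the hippocampus and 15 in the entorhinal cortex, all at least 2-fold. Leaving out both libraries of sheep 699 and the entorhinal library of sheep 694, but keeping the hippocampus of 694, 52 of 19873 genes passed without a block (0.262%), 26 in each direction. The fits shared 23 genes, 79.3% of the first set and 44.2% of the second. In the next paragraphs, passed refers to these smaller fits without the block, unless the block is named. They treat the libraries of a sheep as independent. In the 3-sheep fit with the block, the edgeR adjusted p was 0.0954 for HPCA, 0.106 for PROX1 and CUX2 and 0.124 for NR3C2 and MEF2C. The libraries were chosen after seeing the marker levels.

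Hippocampal genes that passed in both smaller fits included HPCA, with a log2 fold change of 3.25 ± 0.33 (SE) over the 3 sheep and an adjusted p of 0.0347. HPCA was itself among the markers by which sheep 699 was left out, so its pass is not independent support. CABP7, a calcium-binding protein of neurons, read 85.8, 57.2, 90.2, 35.4 and 2.93 CPM in hippocampus and 12.4, 10.5, 12.0, 24.0 and 78.0 CPM in entorhinal cortex, and passed with a log2 fold change of 2.73 ± 0.23 (SE). SHISA6, an auxiliary protein that keeps AMPA receptors at the synapse, read 172, 113, 127, 108 and 24.5 CPM against 21.3, 14.6, 20.5, 90.1 and 143 CPM. KCNG2, a modulatory potassium channel subunit, read 34.3, 33.4, 26.3, 25.3 and 2.35 CPM against 2.34, 4.26, 3.07, 16.4 and 22.4 CPM. In each of these genes the entorhinal library of sheep 694 lay above those of sheep 687, 688 and 690 or, for HPCA, within their range, and the library labelled hippocampus of sheep 699 lay below its entorhinal partner. GPR153, an orphan receptor, had an adjusted p of 0.0145 in the 3-sheep fit, shared with ALDH8A1, CABP7 and KCNG2, and of 0.00496 in the other, with log2 fold changes of 2.10 ± 0.16 (SE) and 2.17 ± 0.15 (SE). TP63, a transcription factor best known from epithelia, was at 9.42, 6.16, 6.60, 9.72 and 0.114 CPM in hippocampus and 0.163, 0, 0.0614, 0.638 and 3.34 CPM in entorhinal cortex.

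PROX1 and NR3C2 each passed in 1 of the smaller fits. PROX1 had a log2 fold change of 1.6 ± 0.19 (SE) and an adjusted p of 0.0381 over sheep 687, 688 and 690, and an adjusted p of 0.0661 when the hippocampus of 694 was kept. NR3C2 had a log2 fold change of 1.39 ± 0.17 (SE) and an adjusted p of 0.0219 with that library, and 0.0523 without it. WNT2, a Wnt ligand, TRPC5, a cation channel of pyramidal cells, and DMRT3, a transcription factor of the medial pallium, passed as higher in the hippocampus with that library. Their log2 fold changes were 2.16 ± 0.30, 1.83 ± 0.26 and 5.10 ± 0.68 (SE), and DMRT3 had 0 counts in the entorhinal cortex of sheep 688. FIBCD1 and RGS14 did not pass in either fit, with adjusted p of 0.386 and 0.443 over the 3 sheep.

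Entorhinal genes that passed in both smaller fits included CUX2 and MEF2C, 2 of the 11 upper-layer genes. In the 3-sheep fit with the block, 4 of these 11 were lower in the hippocampus at an unadjusted edgeR p below 0.05. Another 2 were higher, where 11.4% of all genes were at that level, and the median log2 fold change of the list was -0.22. Without the block, CUX2 had a log2 fold change of -2.76 ± 0.32 (SE) over the 3 sheep and an adjusted p of 0.0381. MEF2C had one of -2.41 ± 0.29 (SE) at the same adjusted p. CUX2 was itself among the markers by which sheep 694 and 699 were left out, so its pass is not independent support. PAK6, a kinase that shapes the cytoskeleton, read 49.8, 61.5, 53.6, 23.2 and 14.8 CPM in entorhinal cortex and 18.5, 16.0, 15.2, 17.3 and 42.9 CPM in hippocampus. VIPR1, a receptor of VIP, read 9.58, 14.5, 7.14, 2.85 and 0.616 CPM in entorhinal cortex and 1.58, 0.996, 1.34, 0.854 and 4.19 CPM in hippocampus. SCUBE1, a secreted protein, read 23.6, 24.3, 14.3, 0.638 and 0.713 CPM in entorhinal cortex and 1.76, 0.688, 1.85, 0.661 and 6.70 CPM in hippocampus. In all 3 genes the entorhinal cortex of sheep 694 and 699 was low and the library labelled hippocampus of sheep 699 was the highest of its region. KCNG1 and the serotonin receptor gene HTR1B passed over the 3 sheep alone. EGR1, ESR2 (estrogen receptor beta), GRM3, MPPED1 and RXFP1 passed with the hippocampus of 694 kept, with log2 fold changes from -4.81 ± 0.68 (SE) for RXFP1 to -0.88 ± 0.13 (SE) for GRM3.

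The libraries outside the 3-sheep fit were placed against the midpoint between its hippocampal and entorhinal means for the 29 genes. The hippocampus of sheep 694 lay on the hippocampal side for 26 genes, and that of sheep 699 for 8. The libraries labelled entorhinal cortex lay on the hippocampal side for 20 genes in sheep 694 and for 27 in sheep 699. No test was made of these counts. Both libraries of sheep 699 lay mostly on the side opposite to their labels. Both libraries of sheep 694 lay mostly on the hippocampal side. The 29 genes were called after these sheep had been left out on marker levels, and HPCA and CUX2 are among them. The sides are therefore partly set by that choice and are not independent support.

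Gene groups within the 3-sheep fit, with the block, are given by members at an unadjusted p below 0.05, beside 11.4% of all genes, and 0 members passed. Of 14 immediate early genes 8 were at that level, all lower in the hippocampus, FOS, FOSB, EGR1 and NPAS4 among them. Of 29 monoamine and acetylcholine receptor genes 12 were, 11 of them lower. Of 31 axon guidance genes 9 were, 8 of them higher, the netrin receptor genes DCC and UNC5C and the neuropilins NRP1 and NRP2 among them. Other lists were also above 11.4% but mixed in direction. Of 31 tested Wnt genes 4 were higher and 8 lower, and of 23 neuropeptide genes 5 and 4. Of 16 interneuron genes 4 were higher and 3 lower, and of 7 metabotropic glutamate receptor genes 1 and 3. Vascular and immune genes at that level were mostly lower in the hippocampus of these sheep: 7 of 12 mural and fibroblast genes, with 1 more, DCN, higher, 5 of 8 endothelial genes and 5 of 9 tested microglial genes, with median log2 fold changes of -1.47, -0.92 and -0.67. The summed mural and fibroblast level was 275, 407 and 981 CPM in the entorhinal cortex and 221, 129 and 264 CPM in the hippocampus of these sheep, and its part in the other groups was not tested. Without sheep 699 alone, 7.06% of all genes were at that level. In that fit 6 immediate early genes and 5 microglial genes were lower in the hippocampus at it, and 0 endothelial and 0 mural genes were. Of the axon guidance genes 6 were higher and 3 lower there. Of the monoamine and acetylcholine receptor genes 2 were higher and 9 lower.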

How the data were processed

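Per the labels, RNA from hippocampus and entorhinal cortex of 5 sheep went through TRIzol, DNase I and a stranded Kapa mRNA kit and was read as 150 bp pairs. The labels name Trimmomatic v0.39 for trimming, STAR v2.7.5a with ARS-UI_Ramb_v3.0 for alignment and Rsubread v2.20.0 for counting. Strand and multi-mapping settings: not given in the sources used here, so near-identical or overlapping genes are uncertain. The deposited values are raw counts per gene for 31304 genes, 1 column per library, and 45 other sheep columns were not used. Totals were 46.7 to 69 M (1000000 counts), of which 4 placeholder entries held 5.71 to 12.99%. No sheep annotation was used, so genes carry no positions or sequences.

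edgeR 4.0.16 (R 4.3.3) tested the counts by quasi-likelihood with trimmed mean of M values, filterByExpr by region, a prior count of 0.125, and region and animal as terms. A gene passed at a Benjamini-Hochberg adjusted p below 0.05 over 19613 genes. The SE is the absolute log2 fold change over the square root of F. Alternatives were no block, other scalings and filters, limma 3.58.1 (voom), DESeq2 1.42.0 and leaving out each sheep. The code was tested on simulated data with 200 changed genes. Samples pair because both regions come from the same animal. Deviations from the region means correlated within animals at 0.186, 0.210, 0.066, 0.044 and -0.182 in the order of the sheep.

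Named genes were 12 per direction by size of change (passing, 2-fold, 10 CPM, no overlap, 1 direction in 5 animals, no placeholder), which no gene met, passing list members (up to 5 per direction), of which there were none, and 23 fixed genes, with 1 more that is not reported here. Others were chosen after their values were seen. Members and lists were chosen with earlier results of these data known.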

Additional observations from a re-analysis of the deposited data

Results flagged for a closer look

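In 8 of 112 groups of 5 libraries (23 fixed genes and 33 list scores, each in 2 regions), 1 library lay far from the other 4, with a gap to its neighbour above 0.71 of the range of the group. For 5 independent, normally distributed values chance gives this in about 1 of 20 groups. The gene levels were not on a log scale and the groups share genes, TTR among them, so that rate need not hold here. The library labelled entorhinal cortex of sheep 699 was flagged for FIBCD1 at 45.6 CPM and RGS14 at 94.8 CPM, and its library labelled hippocampus for RELN at 391 CPM. The entorhinal cortex of sheep 688 was flagged for TBR1 at 92.3 CPM and the score of HCN and potassium channels at 5.78. The entorhinal cortex of sheep 694 was flagged for GABRA5 at 114 CPM. The hippocampus of sheep 694 was flagged for TTR at 1503 CPM and the choroid plexus score at 3.61.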

How the results depend on the processing

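The count of 0 passing genes held without the replicate block (0 passing, 425 at an unadjusted p below 0.05), with 2 other scalings, 2 other filters, limma voom, without the 4 placeholder entries, and without each sheep in turn (0 to 0 passing, and 179 to 1383 at an unadjusted p below 0.05, with 179 without sheep 687, 220 without 688 and 1383 without 699). DESeq2 passed 8 genes, 7 at least 2-fold. Among alternatives chosen after seeing the data, leaving out sheep 694 and 699 passed 0 genes with the block and 29 without it (29 at least 2-fold), leaving out 3 libraries passed 52 without the block (51 at least 2-fold), and leaving out sheep 699 passed 2 without it (2 at least 2-fold), HPCA and FAM162B. The cause of the gain by DESeq2 was not tested.

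Of 391 log2 fold changes of the 23 fixed genes under 17 alternatives, 32 changed sign, in 12 genes, and 0 of these genes passed in the main test. Without the block the sign changed for RELN (0.38), RORB (0.08) and MBP (-0.08), and with voom for RELN (0.13) and SLC17A7 (-0.03). Leaving out 1 sheep gave ranges with a changed sign for C1QL2 (-0.56 to 0.14), FIBCD1 (-0.44 to 1.26), LEF1 (-0.42 to 0.20), NR2F2 (-0.57 to 0.47), RELN (-0.75 to 0.29), RORB (-0.37 to 0.01), GABRA5 (-0.08 to 0.50), DCX (-0.03 to 0.22), SLC17A7 (-0.22 to 0.43) and MBP (-0.06 to 0.22). Without sheep 694 and 699 it changed for DCX, to -0.15 with the block and -0.13 without it, and without the block also for NR2F2 (0.07), RORB (0.12) and TTR (-0.06). Without the 3 libraries it changed for RORB (0.07), NR3C1 (0.01) and MBP (-0.07). With 5 pairs and animals that disagree, differences of 2-fold in genes as variable as FIBCD1 were not detectable.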
